A study of Bos grunniens x Bos taurus and Bos grunniens with 6 samples.

Results

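Serpins are a superfamily of proteins that mostly act as suicide inhibitors of serine proteases: the protease cuts an exposed loop and is trapped in a covalent complex. The human and bovine genes are sorted into clades A to I, of which clade A holds mainly secreted plasma proteins and clade B mainly proteins of the cell interior. A few members are not inhibitors, such as the collagen chaperone SERPINH1, the hormone carriers SERPINA6 and SERPINA7, and SERPINB5 (maspin). SPINK genes encode small secreted inhibitors with a Kazal domain, and SPINT genes encode inhibitors with Kunitz domains at the cell surface. In the male tract these families are known for restraining acrosomal, plasminogen activating and coagulation proteases.

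The genes were taken by symbol from the deposited table, as every row named SERPINA to SERPINI with a number, SPINK with a number or SPINT with a number. This gave 40 of the 18918 genes, with 35 symbols: 33 serpins, 6 SPINK genes and 1 SPINT gene. The symbols SERPINB2, SERPINB4 and SERPINB6 stand on 8 rows together, and since reads of near-identical copies can be split between them, these rows are given by identifier and are uncertain. SERPING1 is the description of a row without a symbol and is described apart, while SPINK2 and SPINT1 were not analysed here.

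RNA-seq libraries of testis tissue came from 3 cattle-yak (C1, C2 and C3) and 3 yak (Y1, Y2 and Y3), 1 library per animal, with every male 4 years old. The cattle-yak were first-generation offspring of a Jersey sire and a Gannan yak dam, and the yak were Gannan yak. The groups were kept in different counties. The labels give castration as the source of all testes, whereas by the study's methods yak were euthanized and only cattle-yak castrated. Place and collection cannot be told apart from the cross. The study set out to compare the testis transcriptome of the sterile hybrid with that of the fertile yak.

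Expression was given as FPKM, fragments scaled to gene length and library depth, and rested on 11175100 to 13136129 fragments on genes per library. A single fragment on 1 kb was worth 0.0761 to 0.0895 FPKM. The groups were compared with limma on log2 (FPKM + 1) for genes with a mean of at least 0.5 FPKM over the animals. A call needed both a p under 0.05 after Benjamini-Hochberg adjustment over all 15042 tested genes and a log2 (foldchange) beyond 1, where positive values are higher in cattle-yak. Adding 1 compresses the change of a gene whose FPKM is small.

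The tissue carried the markers of the testis in both groups, but in very different proportions. All 11 tested Sertoli markers were called higher in cattle-yak, with a summed level of 2884 to 3188 FPKM against 619 to 688 in yak. All 7 tested markers of elongating spermatids were called lower, with a sum of 18.3 to 86.2 FPKM against 9158 to 11130, and so were 5 of 5 of round spermatids. The markers of Leydig cells (6 of 6), myoid cells (7 of 7), stroma (6 of 7) and spermatogonia (5 of 7) were called higher, those of spermatocytes 1 higher and 1 lower of 8, those of endothelium 4 higher and 1 lower of 7, and those of macrophages 4 higher and 2 lower of 7. Both tested blood cell markers and both tested liver markers were called higher. Of the rete testis and epididymis markers 1 of 3 was higher, with sums of 1.54 to 3.75 FPKM in cattle-yak and 1.29 to 8.06 in yak, where WFDC2 had 6.40 FPKM in Y1 and at most 0.907 in the other animals. With median-of-ratios scaling every called marker kept its direction, whereas scaling to the Sertoli markers themselves left 2 of 6 Leydig, 2 of 7 myoid, 6 of 6 stroma, 2 of 5 spermatogonia and no endothelial, macrophage, blood cell, liver, spermatocyte or rete marker that had been called higher above 0. In that scaling the 1 added to the FPKM pulls down markers of small FPKM. The called rete marker, at 1.16 FPKM in cattle-yak against 0 in yak, is an example. In bulk tissue fewer cells of a type and less RNA per cell cannot be told apart, and the part of these markers in the results on the inhibitors was not tested.

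Over all tested genes the median log2 (foldchange) was 0.51, and the values and calls below are given without this shift taken off. Median-of-ratios scaling, which makes the median gene equal between libraries, moved this median to 0.01, and centring each library on the Sertoli markers moved it to −1.70. Scaled in the latter way an abundant gene is compared per unit of Sertoli marker RNA. The mean change of the Sertoli markers was taken off after 1 had been added to the FPKM. A gene of small FPKM is thereby pulled towards negative values whatever its ratio. For such a gene neither the sign nor a lower call in this scaling is a comparison per unit of Sertoli marker RNA. This also bears on the share of all genes called lower there.

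Serpin, SPINK and SPINT genes split in both directions between cattle-yak and yak. Of the 40 genes 21 passed the minimum for the test. Among those called higher in cattle-yak were SERPINI1, SERPINA5, SERPINH1, SERPINE2, SERPINB1, SERPINB8 and 1 row of SERPINB2, and SPINK4, SPINK9, SERPINB5, SERPINA10, SERPINA1 and SERPIND1 were called lower. The calls were 8 higher (38.1%) and 6 lower (28.6%) of the tested members, where 33.4% of all tested genes were called higher and 20.8% lower. The groups did not overlap in 17 of the 21 (81.0%), against 84.1% of all tested genes. The shares are thus near the background, and the family as a whole is not set apart by how many of its genes were called. With median-of-ratios scaling 6 members were higher and 8 lower, against 17.7% and 27.7% of all tested genes, and 6 of the 8 higher and 6 of the 6 lower calls were kept. Centred on the Sertoli markers 3 of the 8 (SERPINI1, SERPINA5 and SERPINH1) stayed above 0, 1 member, SERPINI1, was called higher and 14 were called lower, against 0.213% and 73.2% of all tested genes. In that scaling the values of low genes are pulled down by the added 1.

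**Figure D1:**
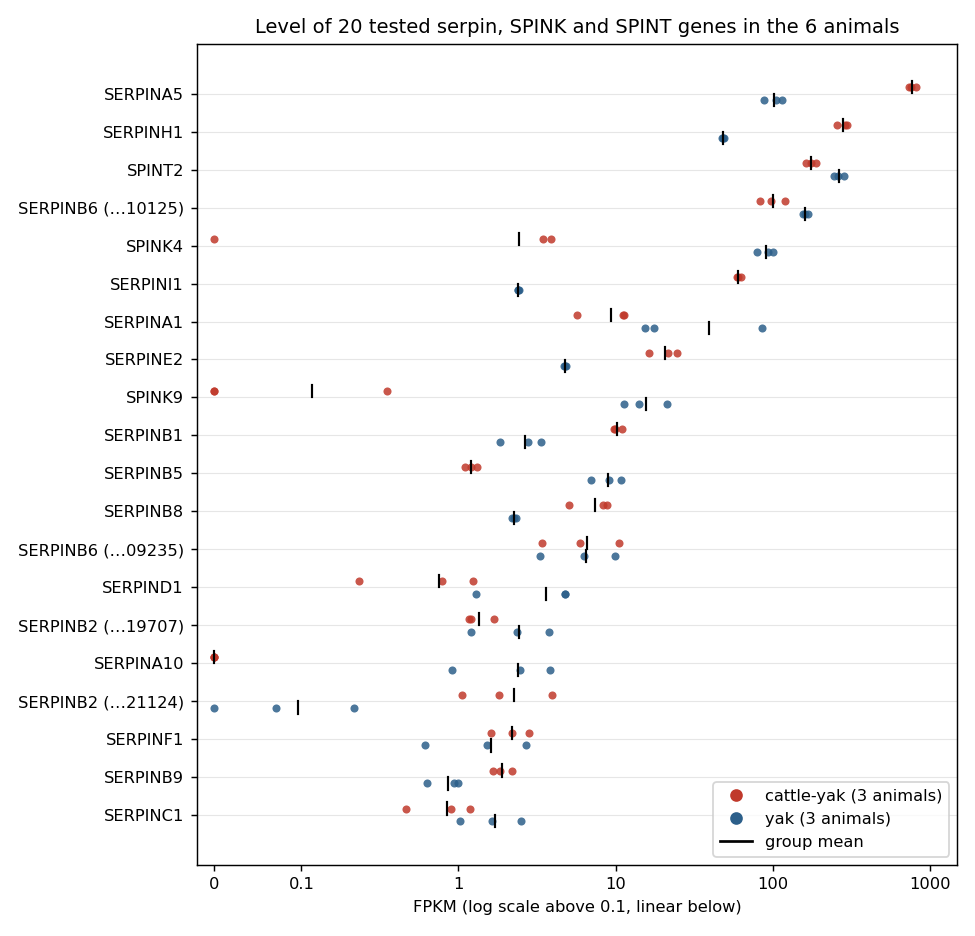
FPKM of 20 tested genes in each animal, on an axis that is logarithmic above 0.1 and linear below, with cattle-yak in red, yak in blue and a black tick at each group mean; rows of a repeated symbol carry the end of their identifier. SERPINA5 lies at 736 to 819 FPKM in cattle-yak, above the 88.1 to 114.9 of yak, SPINK4 lies at 78.9 to 100.6 in yak and at most 3.88 in cattle-yak, and for SERPINA1 the Y3 point at 85.4 stands apart from the other yak.

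The calls were then read by clade. In clade A 1 of 3 tested genes was called higher and 2 lower, with a median log2 (foldchange) of −1.58. In clade B 3 of 8 tested rows were higher and 1 was lower, with a median of 0.33. All 3 higher rows were below 0 when centred on the Sertoli markers. For 1 of them, the SERPINB2 row, this came with the 1 added to low values, as its mean FPKM was 23.7-fold higher in cattle-yak. In clade E SERPINE2 was called higher (1.90), though below 0 when centred on the Sertoli markers. The sole genes of clades H (2.50) and I (4.18) were called higher and stayed above 0 there. The sole gene of clade D was called lower (−1.31), the sole genes of clade C and SPINT were not called, and the tested gene of clade F was not called. Both tested SPINK genes were called lower, with a median of −4.45. Over the 18 tested serpins the median was 0.50, beside 0.51 for all genes.

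The summed level of the 40 genes was higher in cattle-yak, at 1417 to 1542 FPKM against 718 to 852 in yak. This was 0.234% to 0.260% of the FPKM of a cattle-yak library and 0.121% to 0.139% of that of a yak library. SERPINA5 alone made up 51.8% to 53.7% of the sum in cattle-yak, whereas in yak SPINT2 led with 33.3% to 36.1%. Clade A summed to 145.4 ± 50.1 FPKM in yak against 781.6 ± 43.5 in the hybrids (SD, n = 3 each), and SPINK to 107.2 ± 14.3 against 2.65 ± 2.30 (SD, n = 3 each). For clade B the sum was 185.8 ± 8.76 FPKM in yak against 131.9 ± 16.7 (SD, n = 3 each). These sums are descriptions and were not tested.

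**Figure D2:**
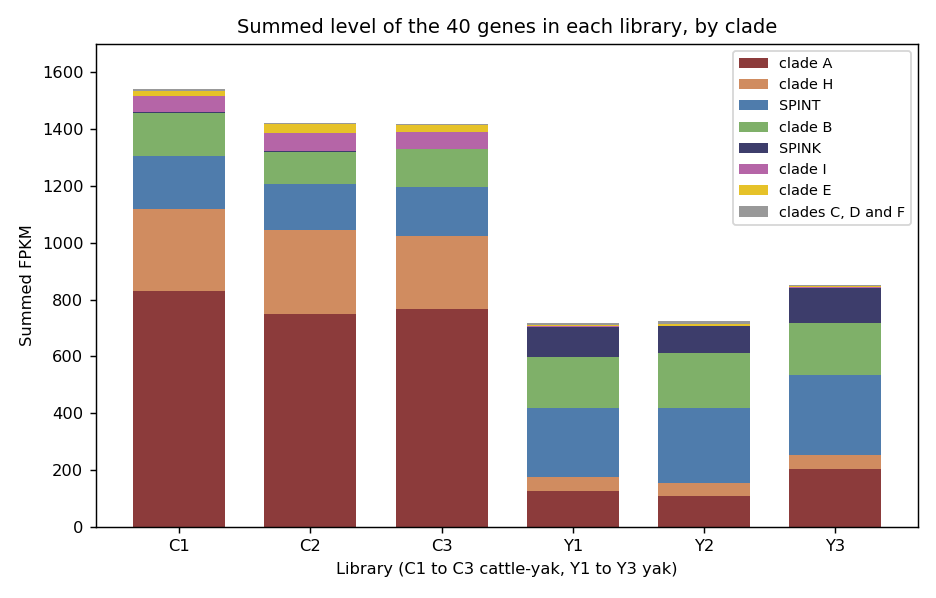
Summed FPKM of the 40 genes in each library as stacked bars, by clade, with cattle-yak C1 to C3 on the left and yak Y1 to Y3 on the right. The cattle-yak bars reach 1417 to 1542 FPKM and are mostly clade A, while the yak bars reach 718 to 852 and hold a SPINK segment of 93.9 to 122.2 that is at most 4.16 in cattle-yak.

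SERPINA5, the protein C inhibitor, is a heparin-binding serpin of seminal plasma whose loss makes male mice infertile, and it was the most abundant member in cattle-yak. SERPINA5 (ENSBGRG00000015224) had 819, 736 and 761 FPKM in C1, C2 and C3, and 104.5, 88.1 and 114.9 in Y1, Y2 and Y3. Every cattle-yak lay far above every yak, and the means, 771.9 ± 42.9 against 102.5 ± 13.5 FPKM (SD, n = 3 each), were 7.53-fold apart. The log2 (foldchange) was 2.91 (standard error, SE, 0.12, limma adjusted p = 3.0e-07), which was 2.29 with median-of-ratios scaling. Centred on the Sertoli markers it was 0.69, still above 0 but no longer past 1.

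SERPINH1, also called HSP47, is a chaperone of the endoplasmic reticulum that binds procollagen and inhibits no protease. SERPINH1 (ENSBGRG00000022881) had 287, 296 and 256 FPKM in C1 to C3, against 47.9, 48.2 and 49.1 in Y1 to Y3. The groups were apart, and the yak animals differed from each other by little, with a coefficient of variation of 1.37%. Its log2 (foldchange) was 2.50 (SE 0.09, limma adjusted p = 2.1e-07), with 1.89 under median-of-ratios and 0.29 under Sertoli-centred scaling.

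SERPINI1, neuroserpin, is a secreted inhibitor of tissue plasminogen activator best known from neurons. SERPINI1 (ENSBGRG00000009344) had 58.9, 62.7 and 60.2 FPKM in cattle-yak and 2.38, 2.42 and 2.41 in yak, which is the largest increase among the tested members (25.2-fold between means). The log2 (foldchange) was 4.18 (SE 0.10, limma adjusted p = 6.5e-08). It was the sole member called higher under each scaling that was tried, with 3.65 under median-of-ratios and 1.96 under Sertoli-centred scaling. The fragments behind it were 1694 to 1703 per cattle-yak library and 76 to 77 per yak library.

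Clade E holds inhibitors of the plasminogen activators. SERPINE2, protease nexin 1, which also inhibits thrombin, had 16.2, 24.6 and 21.5 FPKM in cattle-yak and 4.71, 4.85 and 4.76 in yak. The groups did not overlap, and the log2 (foldchange) of 1.90 (SE 0.16, limma adjusted p = 1.1e-05) turned to −0.32 when centred on the Sertoli markers. C2, the highest cattle-yak for SERPINE2, also had the highest summed level of the myoid markers (794 FPKM against 597 and 609) and of the stroma markers (404 against 308 and 327). The same held for the endothelial, spermatogonia and blood cell markers, but not for the other marker lists. A link of SERPINE2 to any of these cell types was not tested. SERPINE3 was below the minimum for the test, with 22 fragments in cattle-yak and 7 in yak over the 3 libraries of each group.

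Clade B holds intracellular inhibitors of granule and lysosomal proteases, and its tested rows were called in both directions. SERPINB1, an inhibitor of neutrophil elastase, had 11.02, 9.96 and 9.77 FPKM in cattle-yak and 2.76, 3.37 and 1.83 in yak. Its log2 (foldchange) was 1.65 (limma adjusted p = 5.1e-05), with −0.57 when centred on the Sertoli markers. SERPINB8, known as an inhibitor of furin, had 5.07, 8.88 and 8.30 FPKM against 2.26, 2.20 and 2.34. The value of 1.33 (limma adjusted p = 3.3e-04) was 0.84 with median-of-ratios scaling, no longer past 1, and −0.88 when centred on the Sertoli markers. SERPINB9, the inhibitor of granzyme B, had 1.66, 2.19 and 1.83 FPKM against 0.995, 0.935 and 0.629, without overlap. Its log2 (foldchange) of 0.64 (limma adjusted p = 5.8e-03) was not past 1, although it was 1.08 with a pseudocount of 0.1 and −1.57, called lower, when centred on the Sertoli markers. At this low level the added 1 pulls the centred value down. Macrophage markers were mixed over these animals, with 4 of 7 called higher and 2 lower. They summed to 120.1 to 168.2 FPKM in cattle-yak and 108.5 to 141.4 in yak. Much of the yak sum came from the 2 called lower. AIF1 had a mean of 61.3 FPKM in yak against 3.55 in cattle-yak, and CD14 27.3 against 8.93. The sums thus do not measure macrophage content, and its part in these genes was not tested.

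SERPINB5, maspin, is an epithelial serpin without known inhibitory activity, and among clade B it was the sole row called lower in cattle-yak. SERPINB5 (ENSBGRG00000019802) had 1.10, 1.31 and 1.19 FPKM in C1 to C3 and 9.04, 7.01 and 10.8 in Y1 to Y3. The groups lay 7.45-fold apart without overlap, and the log2 (foldchange) was −2.16 (SE 0.18, limma adjusted p = 8.6e-06), with −2.60 under median-of-ratios and −4.37 under Sertoli-centred scaling.

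SERPINB6, a cytoplasmic inhibitor of cathepsin G, stands on 4 rows. The abundant row ENSBGRG00000010125 had 119.7, 83.2 and 98.1 FPKM in cattle-yak and 155.1, 167.7 and 161.0 in yak, and was the most abundant row of clade B in both groups. The groups did not overlap, but the log2 (foldchange) of −0.69 (SE 0.13, limma adjusted p = 1.4e-03) was not past the threshold of 1, and it was −1.31 with median-of-ratios scaling, where it was called lower. The second row, ENSBGRG00000009235, had 5.90, 3.42 and 10.5 FPKM in C1 to C3 and 6.33, 9.88 and 3.28 in Y1 to Y3. Its animals varied widely within each group and the groups overlapped, with a log2 (foldchange) of 0.01 and a 95% interval of −0.94 to 0.97. Of the other 2 rows of SERPINB6, 1 had 11 fragments in cattle-yak and 15 in yak, and 1 had 1 and 7.

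SERPINB2, plasminogen activator inhibitor 2, stands on 2 rows, of which 1 was called. Row ENSBGRG00000021124 had 1.82, 3.94 and 1.049 FPKM in cattle-yak and 0.0713, 0 and 0.216 in yak, where at most 3 fragments lay on it in any library. Its log2 (foldchange) of 1.48 (limma adjusted p = 1.9e-03) was −0.73 when centred on the Sertoli markers. The mean FPKM was 23.7-fold higher in cattle-yak, and the negative value came with the 1 added to low FPKM before centring. It shows no fall per unit of Sertoli marker RNA. Row ENSBGRG00000019707 had 1.17, 1.19 and 1.68 FPKM in cattle-yak and 1.21, 3.76 and 2.37 in yak, with overlapping groups and a log2 (foldchange) of −0.49 (95% interval −1.12 to 0.14). The remaining clade B genes, SERPINB4 (2 rows), SERPINB7, SERPINB10, SERPINB12 and SERPINB14, had at most 14 fragments in any library and were not tested.

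Both tested SPINK genes were far lower in cattle-yak. The row named SPINK4, a symbol that could not be checked against sequence here and that otherwise stands for a Kazal inhibitor of gut goblet cells, had 3.88, 3.43 and 0 FPKM in C1 to C3 and 93.6, 78.9 and 100.6 in Y1 to Y3. In yak it was the fourth most abundant member, and in cattle-yak 12, 10 and 0 fragments remained where yak had 321, 270 and 341. The log2 (foldchange) was −5.04 (SE 0.54, limma adjusted p = 4.1e-05), and −4.30 without C3, the library at 0. SPINK9, known from skin as an inhibitor of a kallikrein protease, had 38, 47 and 70 fragments in yak and 0, 1 and 0 in cattle-yak, that is 11.3 to 21.1 FPKM against at most 0.351. From the pooled fragments, 155 against 1, the ratio of yak to cattle-yak was 136.7 (exact 95% interval 24.2 to 5435, counting error only). Its log2 (foldchange) was −3.86 (limma adjusted p = 2.1e-06). SPINK4 and SPINK9 were called lower under median-of-ratios and Sertoli-centred scaling as well. SPINK1, SPINK7 and SPINK13 were each above 0 in 1 yak library only, with 1 fragment as recovered. For a gene seen in 1 library the recovered number is the smallest that gives a whole length, and thus a minimum. SPINK6 had 2 fragments in cattle-yak and 7 in yak. No difference was detectable for these SPINK genes at this depth.

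**Figure D3:**
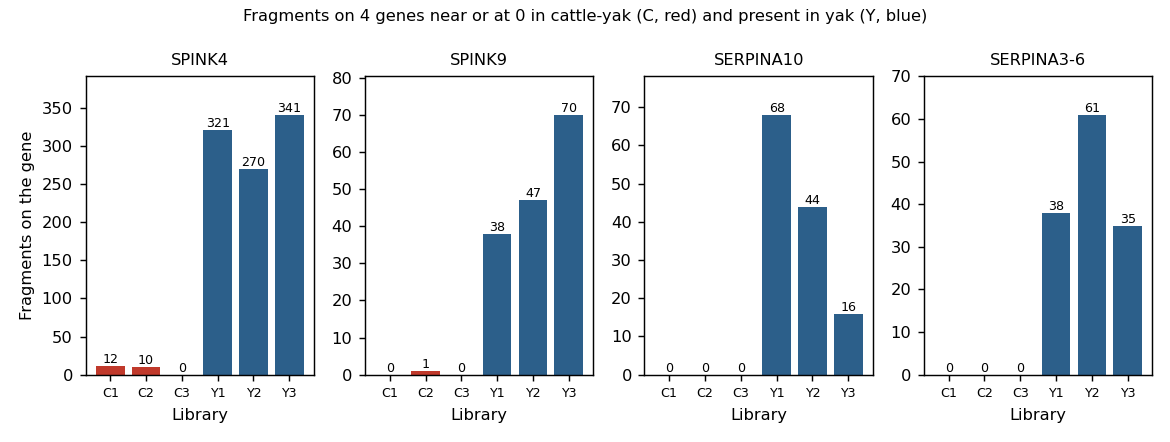
Fragments on SPINK4, SPINK9, SERPINA10 and SERPINA3-6 in each library, as recovered from the FPKM values, with cattle-yak in red and yak in blue and the number above each bar. All yak libraries hold 16 or more fragments on each gene, while cattle-yak hold at most 12 on SPINK4, 1 on SPINK9 and 0 on the other 2.

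SPINT2, also called HAI-2, is a membrane-bound Kunitz inhibitor of proteases such as hepsin and matriptase, and it was the most abundant member in yak. SPINT2 (ENSBGRG00000026667) had 189.5, 162.2 and 175.4 FPKM in C1 to C3 and 244.5, 261.4 and 283.7 in Y1 to Y3. The yak animals were all above the cattle-yak, with a log2 (foldchange) of −0.58 (95% interval −0.81 to −0.35, limma adjusted p = 7.4e-04), which did not reach the threshold. With median-of-ratios scaling it was −1.20 and called lower.

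Among the plasma serpins of clade A, SERPINA10 and SERPINA3-6 had no fragment in any cattle-yak library. SERPINA10, which inhibits factor Xa with protein Z, had 68, 44 and 16 fragments in Y1 to Y3, or 3.81, 2.47 and 0.906 FPKM. Against a floor of 3 fragments over the cattle-yak group it was at least 37.6-fold higher in yak, and limma gave an adjusted p of 1.1e-03. SERPINA3-6, a bovine gene related to antichymotrypsin, had 38, 61 and 35 fragments in yak (0.685, 1.10 and 0.638 FPKM) and was at least 39.4-fold higher there against the same floor. Its mean was under the minimum for the test, and without that minimum its adjusted p was 2.6e-04 from limma, with a log2 (foldchange) of −0.85 on the compressed scale. SERPINA7, the carrier of thyroid hormone, had 14 fragments in cattle-yak and 2 in yak, a ratio of 7.94 (exact 95% interval 1.82 to 71.9, counting error only).

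SERPINA1, alpha-1 antitrypsin, is the main plasma inhibitor of neutrophil elastase, and its call was lost under several alternatives. SERPINA1 (ENSBGRG00000014752) had 11.1, 11.3 and 5.66 FPKM in C1 to C3 and 17.6, 15.5 and 85.4 in Y1 to Y3. The groups did not overlap, but Y3 was 5.52 times the lowest yak. The log2 (foldchange) was −1.58 (SE 0.59, limma adjusted p = 3.5e-02). Without Y3 it was −0.81 and no longer past 1, and the adjusted p was 6.2e-02 without C2, 9.7e-02 without C3 and 5.6e-02 with no minimum on FPKM. The liver markers of Y3 summed to 116.3 FPKM, of which APOA1 gave 114.03 and ALB 0.276, against 67.9 and 106.3 in the other yak and 398 to 428 in cattle-yak. The macrophage markers of Y3 summed to 108.5 FPKM and its blood cell markers to 3.33, the lowest of the 6 libraries for both lists. Of that macrophage sum AIF1 gave 56.5 FPKM and CD14 26.6, both called lower in cattle-yak unlike most of the list. The source of the high SERPINA1 value of Y3 was not tested.

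The genes of clades C, D and F had at most 4.76 FPKM in any animal. SERPIND1, heparin cofactor II, a thrombin inhibitor, had 1.25, 0.780 and 0.231 FPKM in C1 to C3 and 4.75, 4.76 and 1.29 in Y1 to Y3. The lowest yak, Y3, was only just above the highest cattle-yak. The log2 (foldchange) was −1.31 (limma adjusted p = 1.2e-02), and the adjusted p was 5.1e-02 without Y2. SERPINC1, antithrombin, had 1.19, 0.897 and 0.461 FPKM against 1.02, 2.50 and 1.65, with overlap and a log2 (foldchange) of −0.54 (95% interval −1.11 to 0.02). SERPINF1, the anti-angiogenic factor PEDF, had 2.81, 2.20 and 1.61 FPKM against 1.52, 2.69 and 0.615, with overlap and 0.36 (95% interval −0.33 to 1.06). SERPINF2, the plasmin inhibitor alpha-2 antiplasmin, had 12 fragments in cattle-yak and 6 in yak. SERPINA6, SERPINA12 and SERPINA3-1 had at most 7 fragments over the libraries of either group.

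**Figure D4:**
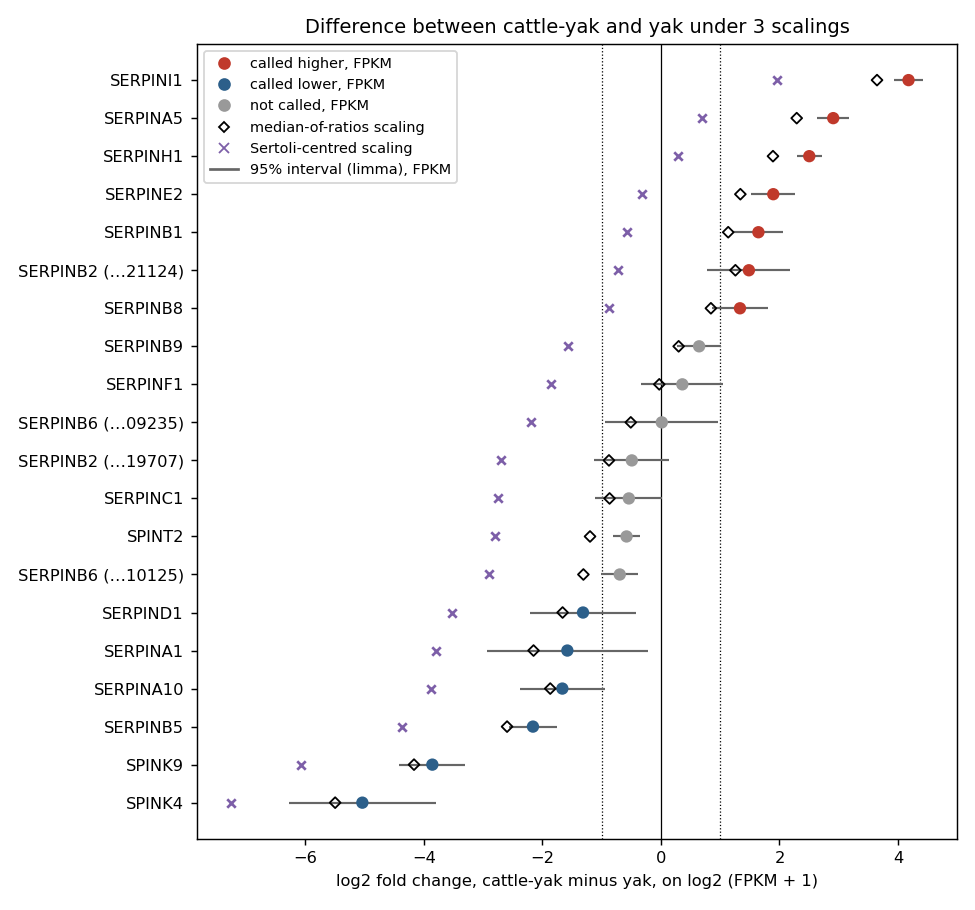
Log2 (foldchange) of 20 tested genes, cattle-yak minus yak, on log2 (FPKM + 1), with filled points and 95% limma intervals for the FPKM as deposited, open diamonds for median-of-ratios and crosses for Sertoli-centred scaling; dotted lines mark the threshold of 1. Of the 7 genes shown as called higher all lie above 0 with median-of-ratios scaling, whereas only SERPINI1, SERPINA5 and SERPINH1 stay above 0 when centred on the Sertoli markers, and the 6 genes called lower stay below −1 in all 3. The cross of the called SERPINB2 row is pulled down by the 1 added to low FPKM.

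The row described as serpin family G member 1 (ENSBGRG00000005774), the C1 inhibitor of complement, carries no symbol and is not counted above. It had 99.2, 114.2 and 110.0 FPKM in cattle-yak and 39.4, 36.3 and 35.0 in yak, so that every cattle-yak lay above every yak. The log2 (foldchange) was 1.52 (SE 0.10, limma adjusted p = 2.5e-06), 0.91 with median-of-ratios scaling and −0.69 when centred on the Sertoli markers.

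By the deposited annotation, 35 of the 40 rows carry the term serine-type endopeptidase inhibitor activity, which 84 genes carry in all, and 8 belong to the pathway of complement and coagulation cascades. SERPINA5 was the sole member annotated to spermatogenesis and SERPINH1 the sole one to collagen binding.

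Lists of known or possible partners of the inhibitors were read by their counts, without a set test. All 6 acrosomal and spermatid proteases were called lower, with a median log2 (foldchange) of −4.64 and below 0 in each scaling, led by PRSS37 (−7.63, from 644 FPKM in yak to 2.55 in cattle-yak) and PRSS55 (−5.57). All 10 procollagens and folding factors, the known clients and helpers of SERPINH1, were called higher with a median of 1.998, led by COL1A1 (2.83) and COL3A1 (2.65), and of these 3 stayed above 0 when centred on the Sertoli markers. COL5A1, at 7.62 FPKM in cattle-yak against 1.02 in yak, was at −0.14 there, where the added 1 lowers the value. Of 7 tested proteases of plasminogen activation and coagulation 2 were higher and 4 lower, with F10 (factor X) at 3.37 and F7 (factor VII) at −4.13, and all 6 kept their direction in both other scalings. PLAT, the tissue plasminogen activator that neuroserpin inhibits, was named after its values were seen and had 47.4 FPKM in cattle-yak against 5.31 in yak, a value of 2.95 (limma adjusted p = 9.9e-07).

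The complement proteases that the C1 inhibitor restrains were called higher in 3 of 3 tested genes, with C1S at 2.08 and MASP1 at 2.004, and all 3 were below 0 when centred on the Sertoli markers. MASP1 had 11.4 FPKM in cattle-yak against 1.93 in yak, a level at which the added 1 lowers its centred value of −0.21. Both tested lysosomal cysteine proteases were higher, CTSK (1.86) and CTSL (1.44, the more abundant of 2 rows), but not above 0 when centred on the Sertoli markers. Of 6 membrane proteases 2 were higher and 1 lower, led by HPN, hepsin, a protease that SPINT2 inhibits (2.79, from 2.89 to 25.8 FPKM), and TMPRSS6 (1.57), of which HPN alone stayed above 0 when centred on the Sertoli markers. TMPRSS6 had 3.86 FPKM in cattle-yak against 0.609 in yak, a level at which the added 1 lowers its centred value of −0.64. Of 6 tested cofactors and clearance receptors 2 were higher and 2 lower, with LRP8 at 2.13, or −0.09 when centred on the Sertoli markers, and VLDLR at −2.32. Of the granule proteases of immune cells 3 were in the table, and none passed the minimum for the test. Of 17 tested genes on a list of further protease inhibitors and their relatives 11 were higher and 2 lower, with a median of 1.85, led by the cystatins CST8 (−5.69) and CST3 (2.77), and 5 of the 11 stayed above 0 when centred on the Sertoli markers. PI15, at 2.93 FPKM in cattle-yak against 0.0867 in yak, was at −0.37 there because 1 was added first. COL1A1 and COL1A2 are also stroma markers, and PI16 is on the list of inhibitors too. AGT, angiotensinogen, is on that list but belongs to clade A of the serpins by descent, and with 3.89 FPKM in cattle-yak against 0.957 in yak it was called higher (1.34, or −0.88 when centred on the Sertoli markers). These medians stand beside 0.51 for all tested genes.

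**Figure D5:**
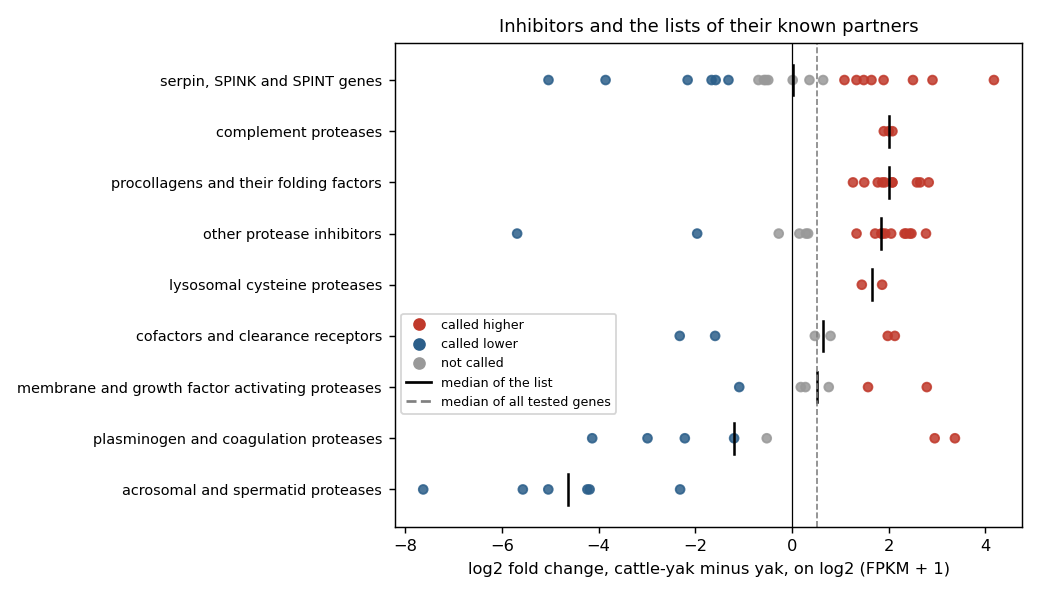
Log2 (foldchange) of each tested gene, cattle-yak minus yak, on log2 (FPKM + 1), for the 21 serpin, SPINK and SPINT genes and for each list of partners with a tested gene; red is called higher, blue called lower and grey not called, with a black tick at the list median and a dashed line at the median of all tested genes, 0.51. The acrosomal and spermatid proteases all lie at −2.32 or below, the procollagens and folding factors all at 1.26 or above (3 of 10 above 0 when centred on the Sertoli markers), and the inhibitors spread from −5.04 to 4.18. Centred values of low genes are pulled down by the added 1.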

How the data were processed

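After trimming (Trimmomatic) the authors mapped reads of both groups to the yak genome LU_Bosgru_v3.0 (HISAT2) and calculated FPKM with Cufflinks, in versions not given in the sources used here. They deposited 1 FPKM value per gene and animal, not scaled between libraries. Reads of the hybrid that carry cattle sequence were thus mapped to yak sequence, and an effect of this on the values was not tested. Because the deposited FPKM step in units of 1 fragment, depth and fragments were recovered from the ratios between libraries, with 99.4% of 11739 gene lengths within 0.02 of a whole base. The recovery and the fits were tested on simulated data. Few genes were changed there and the median gene was not shifted, so the simulation cannot address the choice of scaling.

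Groups came from the descriptions in the labels and columns from the sample titles. Genes with a mean of at least 0.5 FPKM were tested two-sided with limma 3.58.1 in R 4.3.3 (lmFit, eBayes with trend) on log2 (FPKM + 1), with the thresholds of the study. The study itself called genes with DESeq on read counts, so shared thresholds do not make its calls and these alike. The p-values set the difference between the groups against the spread between animals, moderated over genes. The coefficient of variation is the SD over the mean. Figures were drawn with matplotlib 3.10.9 in Python 3.11.15.

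Every member was counted, and 1 is not reported here by itself. Values in every animal were given for the 8 most abundant members of each group, the called members, the leading gene of each clade and a fixed set of members known in the testis, and for the other tested members. Of each partner list the 2 called genes with the largest change were named, and others where the added 1 bears on a centred value. Where a symbol of a list stands on several rows, the most abundant was used. The members and lists were chosen with earlier results of these data known. Intervals of ratios cover counting error only. Alternatives were a pseudocount of 0.1, no minimum or 1 of 5 FPKM, scaling by TPM, by median-of-ratios or by the 11 tested Sertoli markers, limma without a trend, voom on fragments (also with size factors), and the omission of each animal. Sequences and gene positions were not used here.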

Additional observations from a re-analysis of the deposited data

How the results depend on the processing

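The 8 higher and 6 lower calls among the members were the same in number with TPM scaling and without a variance trend, and stayed within 1.5 times with a pseudocount of 0.1 (9 and 6), no minimum (8 and 5), median-of-ratios scaling (6 and 8) and voom on fragments (9 and 6). With a minimum of 5 FPKM, which leaves fewer genes to test, 5 members were higher and 4 lower. With voom and size factors 8 were higher and 10 lower. Centred on the Sertoli markers 1 was higher and 14 lower, and over all genes 32 were higher and 11014 lower, against 5023 and 3136 with FPKM as deposited. Median-of-ratios scaling gave 2655 higher and 4173 lower over all genes. With each animal left out, 7 to 8 members were higher and 5 to 6 lower, and over all genes 4904 to 5134 were higher and 3076 to 3192 lower. Of the called members given by name, the log2 (foldchange) turned when centred on the Sertoli markers for SERPINB1 (−0.57), SERPINB2 row ENSBGRG00000021124 (−0.73), SERPINB8 (−0.88) and SERPINE2 (−0.32). No other setting turned these. For the SERPINB2 row, with a mean FPKM 23.7-fold higher in cattle-yak, the turn came with the 1 added before centring. It shows no fall per unit of Sertoli marker RNA. The low members are limited by depth, since 17 of the 19 untested rows had at most 15 fragments over the libraries of each group. No paired analysis was possible because the groups were different animals and the labels give no pairing between them.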
